A study of Mus musculus with 19 samples.

Results

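The 6 genes described here encode small noncoding RNAs that work inside ribonucleoprotein particles: the Y RNAs Rny1 and Rny3, the 7SK RNA Rn7sk, the RNA of the ribonuclease MRP (Rmrp), the RNA of ribonuclease P (Rpph1) and the telomerase RNA (Terc). They were found by matching symbols to Ensembl identifiers, and are 6 of the 46078 genes in the table of RNA-seq values. They were selected on their normalized counts in these same libraries, namely how they differed between MG-WT, the other glands and the tumors, so those differences are given as a description. The first 5 are textbook products of RNA polymerase III (Pol III), whereas mammalian Terc is made by RNA polymerase II. Which polymerase made an RNA could not be checked with these data.

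The 19 mouse libraries fall into 5 groups. All N and NP mice carried the MMTV-neu transgene, whose promoter is active in mammary epithelium. The NP genotype was MMTV-neu;p53wm-R172H/+;Fsp-Cre, in which Cre, driven by a fibroblast promoter, turns a conditional wild-type Trp53 allele into the R172H mutant. The N genotype lacks either the allele or Cre: MG-N replicate 1 and all T-N tumors were MMTV-neu;Fsp-Cre, and MG-N replicates 2 to 4 were MMTV-neu;p53wm-R172H/+. MG-N and MG-NP (n = 4 each) were glands without malignant lesions from tumor-bearing mice, T-N and T-NP (n = 4 each) were tumors, and MG-WT (n = 3) were glands of wild-type mice, which carried none of these alleles. Individual ages are not in the labels. The mice were of mixed strain background. Every sample is RNA of bulk tissue, in which fewer cells of a type and less RNA per cell cannot be told apart. T-NP replicates 1 and 2 have related library names and were the most alike T-NP pair (Pearson r = 0.98 of log2 values over genes), and may be 2 tumors of 1 mouse, which the labels do not settle. They differed by more than counting noise, so they are not the same library deposited again, and were kept as 2 samples. If they share a mouse, the 4 T-NP tumors come from fewer mice and p-values with T-NP are too small.

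Y RNAs are short hairpins bound by Ro60 and, at their uridine-rich end, by La (Ssb), and are known for roles in RNA quality control and DNA replication. 7SK RNA is capped by Mepce, held by Larp7 and, with Hexim1 or Hexim2, keeps the kinase P-TEFb (Cdk9 with cyclin T) inactive, which restrains elongation by RNA polymerase II. Ribonuclease P trims the 5′ ends of precursor tRNAs, and its relative ribonuclease MRP acts in ribosomal RNA processing. Both share most of their proteins, such as Pop1 and Rpp40. Terc holds the template from which the reverse transcriptase Tert adds telomere repeats. Growing and tumor cells are known for high Pol III output, which Maf1 represses.

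The annotated transcripts below are read 5′ to 3′ from GENCODE vM21 on GRCm38. The Y RNAs are shown because they separate MG-WT from all other libraries. Rny1 (chr6:47788069-47788180, minus strand, 112 bases) and Rny3 (chr6:47781624-47781725, plus strand) are neighbors in opposite orientation, and both lie between protein-coding genes, the nearest being Pdia4. Capitals mark the 80 bases that match between the pair in a global alignment and that make up 78.4% of the aligned bases.
Rny1: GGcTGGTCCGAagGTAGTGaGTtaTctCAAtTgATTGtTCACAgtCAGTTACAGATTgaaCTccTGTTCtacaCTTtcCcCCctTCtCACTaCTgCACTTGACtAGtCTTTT
Rny3: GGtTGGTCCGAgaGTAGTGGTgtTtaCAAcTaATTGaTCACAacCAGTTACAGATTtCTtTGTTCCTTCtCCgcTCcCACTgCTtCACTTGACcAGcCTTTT
Both begin with a shared stem strand that holds GGTCCGA, a string found in the first 15 bases of 2 of the 3529 annotated small RNA transcripts, these same genes. Both end in TTTT, as 13.9% of those transcripts do. Such a run is where Pol III is known to stop and where La binds. 2 genes whose transcripts are near copies of Rny1, Gm26168 (92.7% identity) and Gm26124 (90.5%), were at 0 in every library.

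The first 120 bases of 7SK are shown because it took the largest share of reads of these RNAs in every library. Rn7sk lies at chr9:78175303-78175633 (minus strand, 331 bases), outside protein-coding genes. Capitals mark GATC, which in the first hairpin of 7SK is known to form part of the Hexim binding site. The string occurs 3 times in the whole RNA, and 2.21% of the small RNA transcripts hold 3 or more, or 27.5% of the 160 of 300 to 450 bases.
Rn7sk: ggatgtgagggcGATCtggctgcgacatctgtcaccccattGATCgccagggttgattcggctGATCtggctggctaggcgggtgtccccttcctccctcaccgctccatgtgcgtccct
The first 120 bases of Rpph1 are shown because it had the widest difference between tumors and glands among the abundant RNAs and has relatives in the genome. It lies at chr14:50807449-50807767 (minus strand, 319 bases), overlapping on the same strand Ccnb1ip1, which had 0 to 39.0 normalized counts. It shares 86.6% of 284 aligned bases with Rprl3, an RNase P RNA-like gene. No part is marked.
Rpph1: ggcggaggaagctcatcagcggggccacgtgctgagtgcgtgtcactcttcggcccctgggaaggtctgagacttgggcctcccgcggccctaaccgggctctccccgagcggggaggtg
Terc lies at chr3:96414437-96414859 (minus strand, 423 bases), outside protein-coding genes. Its first 60 bases are shown because they hold the template, CTAACCC at bases 29 to 35 (capitals), a string present in 0.652% of the small RNA transcripts.
Terc: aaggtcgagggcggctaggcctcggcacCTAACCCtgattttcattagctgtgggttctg
Rmrp, which is not printed, lies at chr4:43492788-43493058 (minus strand, 271 bases) and overlaps on the opposite strand Ccdc107, which had 99.1 to 1241 normalized counts. How the authors' counting treated overlapping genes is not given in the sources used here. A match to any of these strings is a description of the letters only. A second annotation of Rmrp with the same 271 bases was not analysed here.

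The table holds read counts per gene divided by a DESeq2 size factor for each library, and these normalized counts are the unit used below. Whole reads were recovered from them, 20899152 to 27262440 per library in the 16 libraries of N and NP mice and 54677315 to 62645459 in MG-WT. The labels give no batch and name the same total RNA kit for every library, whereas the study's methods name an mRNA kit. MG-WT stood apart in depth and in the shares of other noncoding RNA genes. Small nuclear RNA genes took 0.0160% to 0.0213% of its reads against 0.176% to 0.842% in the other glands. Mitochondrial rRNA genes took 0.0141% to 0.0628% against 2.02% to 11.6%. Library preparation, tissue content and genotype cannot be told apart for MG-WT. Erbb2, the gene of the neu receptor, whose counts may include transgene reads, had 73426 to 155042 in tumors, 1845 to 14718 in MG-N and MG-NP and 3826 to 4210.1 in MG-WT. All 6 luminal epithelial markers listed for the tissue check had at least 10 normalized counts in every library. They summed to 65656 to 80881 in MG-WT, above the 7474 to 22845 of MG-N and MG-NP, and the 5 basal markers to 33309 to 42025 against 2947 to 7852. MG-WT had more counts of both epithelial lists than the glands it is compared with. The part of tissue content in the differences of the 6 RNAs from MG-WT was not tested. The white adipocyte markers (6 genes, among them Adipoq and Plin1) summed to 77183 to 244611 in MG-N and MG-NP, 1108 to 1526 in MG-WT and 248 to 4071 in tumors, and 1 of the 6 had at least 10 in every MG-WT library. The skeletal muscle markers (6 genes, among them Acta1 and Ckm) summed to 9060.3 to 1880622 in MG-NP and at most 19088 in any other library.

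The Y RNAs were close to absent from MG-WT and abundant everywhere else. Rny1 had 1.71, 0.976 and 2.58 normalized counts in the 3 MG-WT glands, which is 11 reads in all (95% Poisson interval 5.49 to 19.7, counting error only). In MG-N it had 5757, 3893, 5872 and 5288, and in MG-NP 4242, 8250.3, 4013 and 7430.1. The tumors had 29507, 13789, 23983 and 33502 in T-N and 17208, 27140.0, 29361 and 34198 in T-NP. MG-WT lay far below both other gland groups, whose ranges overlapped, and every tumor lay above every gland.

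Rny3 followed the same order with lower contrast between tumors and glands. It had 0, 0 and 1.55 normalized counts in MG-WT, or 3 reads in all (95% Poisson interval 0.619 to 8.77). The values were 9680.1, 7591, 13556 and 10021 in MG-N, followed by 6148, 7317, 8641 and 9721 in MG-NP. They were 30896, 13392, 26479 and 28851 in T-N and 25239.6, 34034, 31504 and 30369.8 in T-NP. T-N replicate 2, the lowest tumor, lay within the range of MG-N, whereas all T-NP tumors lay above all MG-NP glands. Within a library the normalized count of Rny1 was 0.433 to 0.595 of that of Rny3 in MG-N, 0.464 to 1.13 in MG-NP, 0.906 to 1.16 in T-N and 0.682 to 1.13 in T-NP.

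Rn7sk was the most abundant of the 6 RNAs in every library, by count and per length. In MG-WT it had 61735, 87957 and 81391 normalized counts. MG-N had 351260.2, 157182, 201137 and 287219.7, and MG-NP had 209201, 189325, 253681 and 189008. The tumors had 795360.2, 481770.3, 539147 and 528139 in T-N and 430728, 681257, 949550.3 and 824170.2 in T-NP. The MG-WT, other gland and tumor ranges did not overlap, while N and NP overlapped within each tissue.

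The RNA of ribonuclease P showed 3 separate levels. Rpph1 had 3922, 5181 and 5152 normalized counts in MG-WT, 40192, 30398, 32930.2 and 35177 in MG-N, followed by 41482, 45986, 76605 and 19944 in MG-NP. The tumors had 334474, 163486, 249289 and 285539 in T-N and 187642, 324006, 404987 and 485529 in T-NP. The lowest tumor value was above the highest gland value, that of MG-NP replicate 3, and the MG-NP glands were more spread than the MG-N glands.

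Its relative Rmrp had a smaller difference between glands and tumors. Rmrp had 17229, 20561 and 21228 normalized counts in MG-WT, 81233, 56372, 74696 and 73355 in MG-N, followed by 81523, 91297, 174172 and 38272 in MG-NP. The tumors had 133609, 142452, 115070.3 and 187222 in T-N and 103006, 217237, 246418 and 223608 in T-NP. MG-NP replicate 3 exceeded T-NP replicate 1, so those groups overlapped, and MG-NP replicate 4 was the lowest of the N and NP libraries. Within each library the count of Rmrp was 3.97 to 4.39 times that of Rpph1 in MG-WT, 1.85 to 2.27 times in MG-N and MG-NP, and 0.399 to 0.871 times in tumors, a ratio that no scaling of libraries can change.

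Terc was rare, and was the only one of the 6 with overlapping values in MG-WT and the other glands. It had 40.5, 52.2 and 65.1 normalized counts in MG-WT, 35.7, 20.7, 129.6 and 47.4 in MG-N, followed by 106, 65.7, 219.9 and 23.2 in MG-NP. The tumors had 322, 634, 603 and 599.9 in T-N and 265, 661, 635 and 452 in T-NP. All tumors lay above all glands, and T-N replicate 1 and T-NP replicate 1 were the lowest tumors. Read counts behind the gland values were 18 to 203 per library, so counting error adds to their spread.

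**Figure D1:**
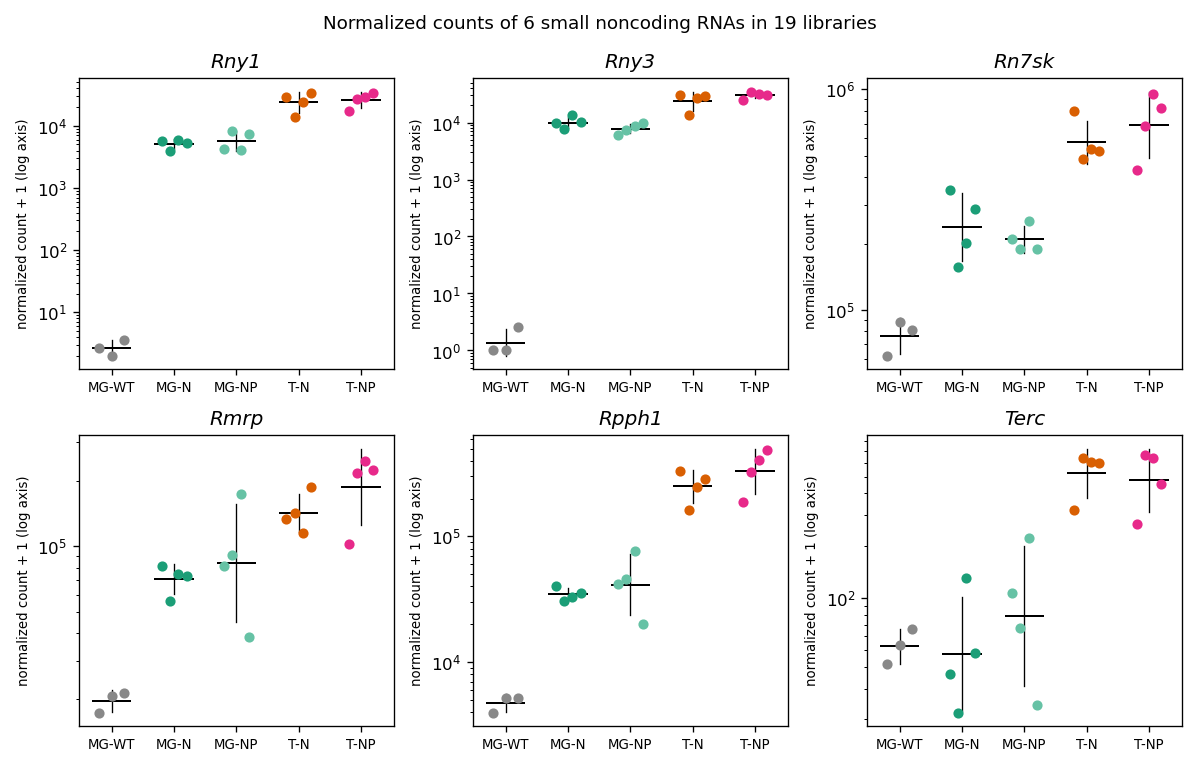
Normalized count plus 1 (log axis) of each of the 6 RNAs in the 19 libraries by group; points are libraries, horizontal bars the mean and vertical bars the SD of the log2 values. Rny1 and Rny3 stay under 3 counts in MG-WT, Rpph1 forms 3 levels, and Terc is separate only in tumors.

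Per kilobase of annotated length, the mean levels in MG-WT ran from Rn7sk (232712 normalized counts per kilobase) through Rmrp (72593) and Rpph1 (14895) to Terc (124), Rny1 (15.7) and Rny3 (5.07). In MG-N the order was Rn7sk (752870), Rmrp (263520), Rpph1 (108696), Rny3 (100118), Rny1 (46452) and Terc (138), with overlapping libraries for Rpph1 and Rny3. In T-N it was Rn7sk (1770708), Rpph1 (809394), Rmrp (533537), Rny3 (244164), Rny1 (224958) and Terc (1276), with overlapping libraries for Rpph1 and Rmrp and for Rny3 and Rny1. Together the 6 RNAs took 0.310% to 0.426% of the recovered reads in MG-WT, 0.761% to 2.22% in MG-N and MG-NP and 2.93% to 6.10% in tumors. Rn7sk alone took 0.231% to 0.330% in MG-WT and 1.65% to 3.49% in tumors.

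**Figure D2:**
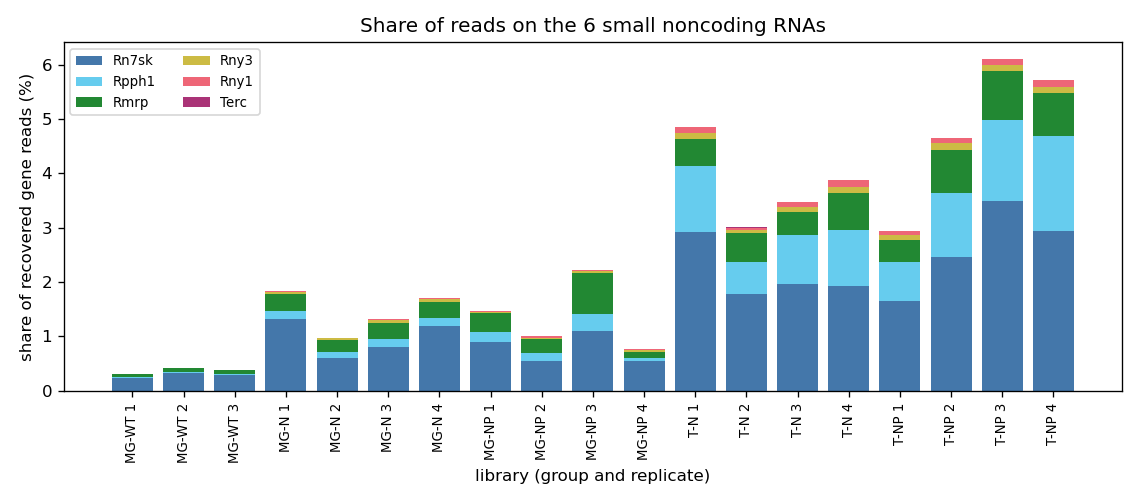
Share of recovered gene reads (%) on each of the 6 RNAs, stacked, in each of the 19 libraries. The stacks reach at most 0.426% in MG-WT and 6.10% in T-NP, and the Rpph1 layer goes from 0.0574% to 0.329% in MG-N and MG-NP to 0.602% to 1.73% in tumors.

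The glands of tumor-bearing mice were compared with MG-WT to describe how far wild-type glands stood from the others. Both comparisons share the MG-WT libraries. The ratio of mean normalized counts, MG-N to MG-WT, was 2964 for Rny1 and 19764 for Rny3, with counting intervals from the few MG-WT reads of 1657 to 5938 and 6763 to 95837. For MG-NP the ratios were 3409 (1905 to 6829.5) and 15399 (5269 to 74672). The differences of mean log2(normalized count + 1), MG-N minus MG-WT, were 1.64 ± 0.30 (SE) for Rn7sk, 1.85 ± 0.15 for Rmrp, 2.87 ± 0.16 for Rpph1 and -0.15 ± 0.58 for Terc. For MG-NP minus MG-WT they were 1.45 ± 0.18, 2.099 ± 0.46, 3.13 ± 0.42 and 0.58 ± 0.70 in the same order. In both comparisons the values of 5 of the 6 did not overlap with MG-WT and lay higher, where 31.5% of all tested genes did so in MG-N and 26.5% in MG-NP. As the members were chosen with these contrasts known, nothing is read from that count. The sign of the Terc difference in MG-N was positive, 0.15, with edgeR or DESeq2 on recovered reads.

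Other short RNAs also differed between MG-WT and the other glands. For the 279 small RNA genes with a mean of at least 10 normalized counts, the median MG-N minus MG-WT difference was -1.13 for the 49 of up to 89 bases, 0.13 for the 44 of 90 to 119, 1.97 for the 97 of 120 to 149, 0.36 for the 50 of 150 to 249 and 0.14 for the 39 of 250 bases or more. These length classes were chosen after the values were seen. The medians of MG-NP minus MG-WT were -1.04, -0.11, 2.06, 0.50 and 0.08 in the same order. The mean of at least 10 was taken over all libraries, so genes close to absent from MG-WT entered through the other groups. Both Y RNAs lay above every other gene of their length class, but they were chosen on this difference, so nothing is read from their rank. The part that library preparation had in these differences was not tested.

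**Figure D3:**
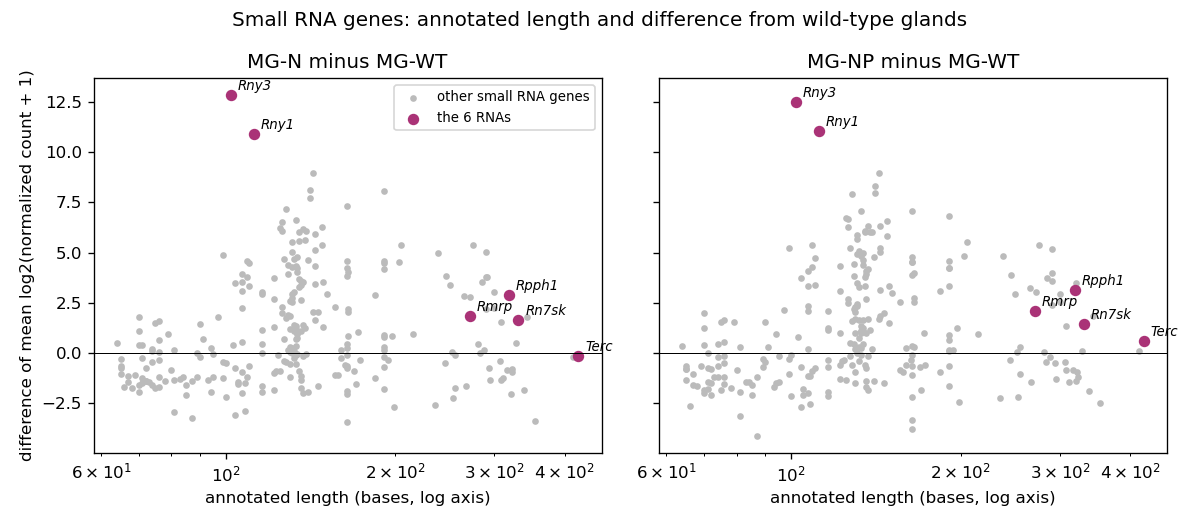
Annotated length (bases, log axis) against the difference of mean log2(normalized count + 1) from MG-WT for 279 small RNA genes, with MG-N on the left and MG-NP on the right; each point is a gene and the 6 RNAs are named. Rny3 (12.84 and 12.49) and Rny1 (10.91 and 11.05) lie highest, and Terc lies near 0 in MG-N.

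All 6 RNAs had higher means in T-N than in MG-N and in T-NP than in MG-NP. All T-N tumors but only MG-N replicate 1 were MMTV-neu;Fsp-Cre, so T-N minus MG-N also spans a difference in Cre and the p53 allele. On the log2(normalized count + 1) scale, T-N minus MG-N was 3.46 ± 0.59 (SE) for Terc, 2.86 ± 0.24 for Rpph1, 2.22 ± 0.31 for Rny1, 1.27 ± 0.30 for Rn7sk, 1.25 ± 0.33 for Rny3 and 1.01 ± 0.19 for Rmrp. In NP the mean normalized count of Rpph1 was 7.62 times as high in tumors, with an SE of 0.50 for the log2 difference. For the others T-NP minus MG-NP was 2.59 ± 0.73 for Terc, 2.203 ± 0.34 for Rny1, 1.94 ± 0.17 for Rny3, 1.73 ± 0.27 for Rn7sk and 1.16 ± 0.53 for Rmrp. In each genotype 5 of the 6 did not overlap (all but Rny3 in N and all but Rmrp in NP), where 22.7% of tested genes in N and 25.2% in NP lay higher in every tumor. The rule for the list used these contrasts, so no test is given. The median over the 6 was 1.75 in N and 2.07 in NP, beside -0.05 and -0.07 over all tested genes. Without MG-NP replicates 2 and 4, the glands richest in muscle markers, an alternative added after the data were seen, the 6-gene median in NP was 1.84. The value for Rmrp in NP was 0.65 and that for Terc 1.63 without those glands. Leaving out MG-NP replicate 4 alone gave 0.78 for Rmrp. Luminal markers (6 genes) summed to 7474 to 22845 in MG-N and MG-NP and 83915 to 164790.2 in tumors, and their part in the differences was not tested.

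**Figure D4:**
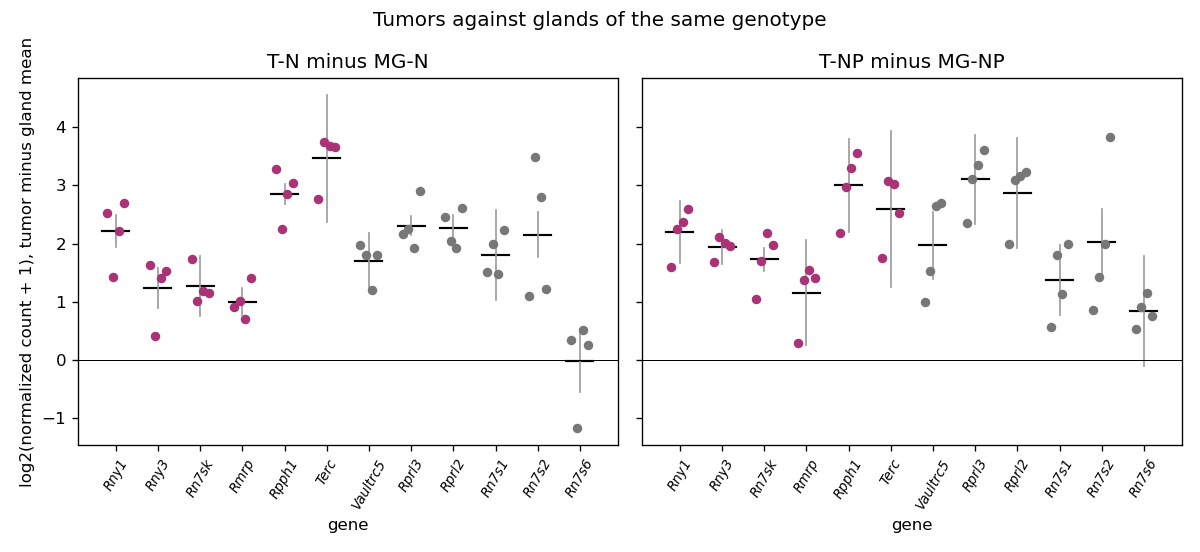
Each tumor's log2(normalized count + 1) minus the gland mean, T-N minus MG-N on the left and T-NP minus MG-NP on the right. The 6 RNAs are purple and 6 other small RNA genes gray. Horizontal bars are means and gray vertical lines the SD of the glands. Means are highest for Rpph1 and Terc among the 6 in both panels, and Rn7s6 is near 0 in T-N.

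Whether mutant p53 in fibroblasts went with other levels of these RNAs was tested in glands and in tumors, contrasts that the list did not rest on. None of the 6 passed the threshold (adjusted p under 0.05 and at least 2-fold, limma with Benjamini-Hochberg adjustment over all tested genes), and the intervals still allow sizable differences. For MG-NP against MG-N, Rny1 had a log2 fold change of 0.15 (95% interval -0.47 to 0.77, adjusted p = 0.91). Rny3 had -0.35 (95% interval -0.84 to 0.14, adjusted p = 0.63) and Rn7sk -0.19 (95% interval -1.09 to 0.72, adjusted p = 0.93). Of the enzyme RNAs, Rmrp had 0.25 (95% interval -0.76 to 1.25, adjusted p = 0.91) and Rpph1 0.26 (95% interval -0.60 to 1.12, adjusted p = 0.88). Terc had 0.73 (95% interval -0.99 to 2.45, adjusted p = 0.81). The share of all 18563 tested genes called was 0%, with 1950 genes at an unadjusted p under 0.05. edgeR called 0 genes, while DESeq2 called 404 genes higher and 115 lower, none of them one of the 6. The count rested on MG-NP replicate 3, without which limma called 297 genes higher and 21 lower, again none of the 6. Without MG-NP replicates 2 and 4, Terc had 1.70, adjusted p = 0.31.

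For T-NP against T-N, Rny1 had a log2 fold change of 0.13 (95% interval -0.59 to 0.85, adjusted p = 0.93). Rny3 had 0.34 (95% interval -0.28 to 0.97, adjusted p = 0.79) and Rn7sk 0.27 (95% interval -0.83 to 1.36, adjusted p = 0.91). Of the enzyme RNAs, Rmrp had 0.40 (95% interval -0.42 to 1.22, adjusted p = 0.81) and Rpph1 0.40 (95% interval -0.57 to 1.38, adjusted p = 0.84). Terc had -0.14 (95% interval -0.90 to 0.63, adjusted p = 0.93). Of 16638 genes tested 0.0421% were called, while edgeR called 0 and DESeq2 called 51 higher and 34 lower, again none of the 6. The 7 calls became 34 higher and 18 lower without T-N replicate 1 and 0 without any other single library or with T-NP replicates 1 and 2 averaged. Of the 6 RNAs, 0 had an unadjusted p under 0.05 in either contrast. The tumor-gland difference, which in N also spans a difference in Cre and the p53 allele, was compared between N and NP with an interaction term. Rny3 had the smallest adjusted p of the 6 there, at 0.69 (95% interval -0.06 to 1.45, adjusted p = 0.66), and Terc the widest interval, at -0.87 (95% interval -2.71 to 0.97, adjusted p = 0.87). The other log2 differences were 0.46 for Rn7sk, 0.15 for Rmrp, 0.14 for Rpph1 and -0.02 for Rny1. Here 0% of 19367 genes were called, 1536 had an unadjusted p under 0.05, edgeR called 0, and DESeq2 called 50 higher and 277 lower, none of the 6 among them. Without MG-NP replicate 3 limma called 194 genes, 11 of them higher and the others lower, without T-N replicate 1 it called 14 and 6, and without MG-NP replicate 4 it called 2 and 0, none of the 6 in each case. Without MG-NP replicates 2 and 4, the Terc interaction was -1.84, adjusted p = 0.48.

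Over the 16 libraries of N and NP mice, which share the step from gland to tumor, the log2 levels of the 6 RNAs were related to different degrees. Rny1 and Rny3 had a Pearson r of 0.94, and 0.71 after group means were removed. Rmrp and Rpph1, the RNAs of enzymes with shared proteins, had 0.88 and 0.87, and Rmrp and Terc had 0.88 and 0.77. Rn7sk and Rpph1 had 0.94 and 0.67, whereas Rny1 and Rmrp had 0.70 and 0.05. These are descriptions without a test. Among 14725 genes, the profiles most like that of Rny1 were Snora47, Zscan21, Trib3, Nudt3 and Aff4 (r 0.96 to 0.97), and those most like Rny3 were Wdr61, Tmem218, Rab3d, Ints14 and Rcn2 (0.97 for each). Gm22620, Gm24265, Rbm45, Gm24455 and Gm25541 were nearest to Rn7sk (0.95 for each), and Gm25777, Gm23105, Gm25835, Snord8 and Scarna2, all small RNA genes, to Rmrp (0.92 to 0.93). Gm24265, Ccdc137, Gm24407, Stac2 and Sec14l2 were nearest to Rpph1 (0.98 for each). For Terc they were Hist1h2af, Rpl13, Hist1h4n, Hook2 and Hist1h2bg (0.96 to 0.97), of which 3 encode replication-dependent histones. Histone genes together took 0.0261% to 0.132% of reads in MG-N and MG-NP and 0.168% to 0.457% in tumors. Their share in MG-WT was 0.0425% to 0.0449%, within the range of MG-N and MG-NP.

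Of the other Pol III RNAs listed, 10 of 13 were in the table, and the ones with reads mostly followed the 6. The vault RNA gene Vaultrc5, whose product is part of the vault particle, had 3.84, 7.81 and 8.78 normalized counts in MG-WT and 2448 to 6084 in MG-N and MG-NP. In tumors it had 7516 to 24469. Its differences were 8.99 ± 0.40 (SE) for MG-N minus MG-WT, 1.699 ± 0.30 for T-N minus MG-N and 1.97 ± 0.51 for T-NP minus MG-NP. Rprl3 had 79.7, 103 and 119 in MG-WT, 1929 to 6931 in MG-N and MG-NP and 12327 to 44291 in tumors. The count of Rpph1 was 43.4 to 50.5 times that of Rprl3 in MG-WT, 10.04 to 14.3 times in MG-N and MG-NP and 10.1 to 23.2 times in tumors. How reads were shared between such similar genes is not given in the sources used here, so Rprl3 and Rprl2 (at most 69.9 counts) are uncertain.

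The listed 7SL genes, whose RNA is the core of the signal recognition particle, had low counts. How reads that match several gene copies were counted is not given in the sources used here. Low counts of a small RNA gene here therefore need not mean that its RNA was scarce. Rn7s1 had at most 1.28 normalized counts in MG-WT, 3.45 to 17.1 in MG-N and MG-NP and 17.9 to 49.9 in tumors. Rn7s2 had at most 2.07, then 6.68 to 24.2 and 20.2 to 189. Rn7s6 had at most 3.62 in MG-WT, 16.2 to 81.5 in MG-N and MG-NP and 20.02 to 92.2 in tumors, where the groups overlapped. Rnu73b, annotated as a small nucleolar RNA, went the other way, with 58.6 to 97.2 in MG-WT and 4.88 to 40.8 elsewhere. Rn5s and Rprl1 were at 0 in every library, and Rnu6 did not exceed 4.39. The 12 listed small RNAs of RNA polymerase II were mixed. The minor spliceosomal RNAs Rnu11 and Rnu12 were ordered over the groups like Rpph1. Rnu11 had 14.1 to 28.9 in MG-WT, 302 to 822 in MG-N and MG-NP and 855 to 2799 in tumors, and Rnu12 65.4 to 123, 336 to 949 and 2754 to 7284. The 3 others with more than 3 counts in any library, of the major spliceosome, had lower means in MG-N and MG-NP than in MG-WT. They are single genes at low counts. Small nuclear RNA genes together went the other way, with the shares of reads given above. Rnu1a1 had 25.9 to 48.6 in MG-WT and 6.57 to 28.6 in MG-N and MG-NP, Rnu2-10 had 20.01 to 66.1 and 4.70 to 17.8, and Rnu5g had 27.3 to 58.9 and 0 to 23.7. The tumor ranges of these 3 overlapped with MG-WT. The long nuclear RNA Malat1 had 385928 to 463425 in MG-WT, 288465 to 389444 in MG-N and MG-NP and 105492 to 255084 in tumors.

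The genes of proteins that bind, process or make these RNAs were tested in every comparison, 72 of the 73 listed (Rpp25 was under the filter). Few of them differed by 2-fold between tumors and glands. For T-N against MG-N, 4 of 72 were called higher and 1 lower, where 12.8% of all tested genes were called higher and 22.3% lower. For T-NP against MG-NP, 5 were called higher and 1 lower, where 14.7% and 24% of all genes were. The median log2 fold change over the 72 was 0.40 in N and 0.37 in NP, beside -0.05 and -0.07 over all tested genes. Without the 2-fold threshold 28 were higher and 3 lower in N, and 31 and 3 in NP. Over all genes, 4217 of 17950 were then higher and 4983 lower in N. In NP these were 4689 and 5240 of 17880.

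Among proteins that bind Y RNAs, Puf60 was called higher in tumors of both genotypes, with log2 fold changes of 1.02 (SE 0.11, adjusted p = 2.4e-04) in N and 1.18 (SE 0.13, adjusted p = 1.3e-04) in NP. In N the fold fell just short of 2 without MG-N replicate 1 (0.96) or T-N replicate 4 (0.9998). La (Ssb) had 0.74 (SE 0.19, adjusted p = 0.012) and 0.78 (SE 0.12, adjusted p = 6.7e-04), past the adjusted p but under 2-fold. Ro60, named Trove2 in the annotation, had 0.02 (SE 0.14, adjusted p = 0.90) and 0.29 (SE 0.20, adjusted p = 0.24). In the 7SK particle 0 of 7 genes were called. Larp7 had 0.94 (SE 0.23, adjusted p = 0.0084) in N and 0.78 (SE 0.20, adjusted p = 0.011) in NP, and Mepce 0.37 (SE 0.14, adjusted p = 0.048) and 0.41 (SE 0.15, adjusted p = 0.044). In N, Larp7 passed 2-fold without MG-N replicate 3 (1.06) or T-N replicate 1 (1.07). Hexim1 had -0.56 (SE 0.23, adjusted p = 0.072) and 0.02 (SE 0.19, adjusted p = 0.94), and Cdk9 0.29 (SE 0.12, adjusted p = 0.075) and 0.28 (SE 0.13, adjusted p = 0.083).

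Of the 10 tested proteins of ribonucleases P and MRP, 0 were called in N. In NP 2 were, namely Rpp38 with 1.16 (SE 0.22, adjusted p = 0.0022) and Rpp25l with 1.07 (SE 0.25, adjusted p = 0.0061). The scaffold Pop1 had 0.05 (SE 0.15, adjusted p = 0.81) in N and 0.14 (SE 0.20, adjusted p = 0.56) in NP, and Rpp40 -0.72 (SE 0.26, adjusted p = 0.046) and -0.63 (SE 0.24, adjusted p = 0.052). Tert rose in N, with 1.52 (SE 0.32, adjusted p = 0.0044), from 141 to 436 mean normalized counts. In NP it had 0.70 (SE 0.43, adjusted p = 0.19), and the difference between genotypes, -0.82 (SE 0.56, adjusted p = 0.77), was not called. Dkc1, which stabilizes Terc, had 0.14 (SE 0.15, adjusted p = 0.46) and 0.33 (SE 0.12, adjusted p = 0.045).

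Of the Pol III subunits, 2 were called higher and 1 lower of 18 in each genotype. Polr2e, shared by the 3 nuclear polymerases, was higher in N, 1.25 (SE 0.15, adjusted p = 3.1e-04), and in NP, 1.25 (SE 0.11, adjusted p = 6.1e-05). Polr2f, also shared, was called in N, 1.02 (SE 0.17, adjusted p = 0.0013), and Polr3k in NP, 1.14 (SE 0.13, adjusted p = 1.9e-04). Polr3gl, one of a pair of alternative subunits, was lower, -1.15 (SE 0.29, adjusted p = 0.011) in N and -1.22 (SE 0.28, adjusted p = 0.0058) in NP. It missed 2-fold in N without T-N replicate 2 (-0.98) and in NP without MG-NP replicates 2 and 4 (-0.84). Its paralog Polr3g, the form known from embryonic and tumor cells, had -0.35 (SE 0.22, adjusted p = 0.22) and -0.10 (SE 0.21, adjusted p = 0.72). The catalytic subunit Polr3a had 0.18 (SE 0.13, adjusted p = 0.30) and 0.15 (SE 0.12, adjusted p = 0.31). Of 19 Pol III transcription factors, 0 were called. Brf1, of the factor used at tRNA genes, had 0.11 (SE 0.16, adjusted p = 0.58) and 0.30 (SE 0.15, adjusted p = 0.12). Brf2, used at 7SK and similar genes, had 0.41 (SE 0.16, adjusted p = 0.055) and 0.45 (SE 0.17, adjusted p = 0.052), and Bdp1, common to both, 0.02 (SE 0.12, adjusted p = 0.91) and -0.02 (SE 0.11, adjusted p = 0.91). The repressor Maf1 had 0.45 (SE 0.11, adjusted p = 0.0089) and 0.10 (SE 0.12, adjusted p = 0.49).

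**Figure D5:**
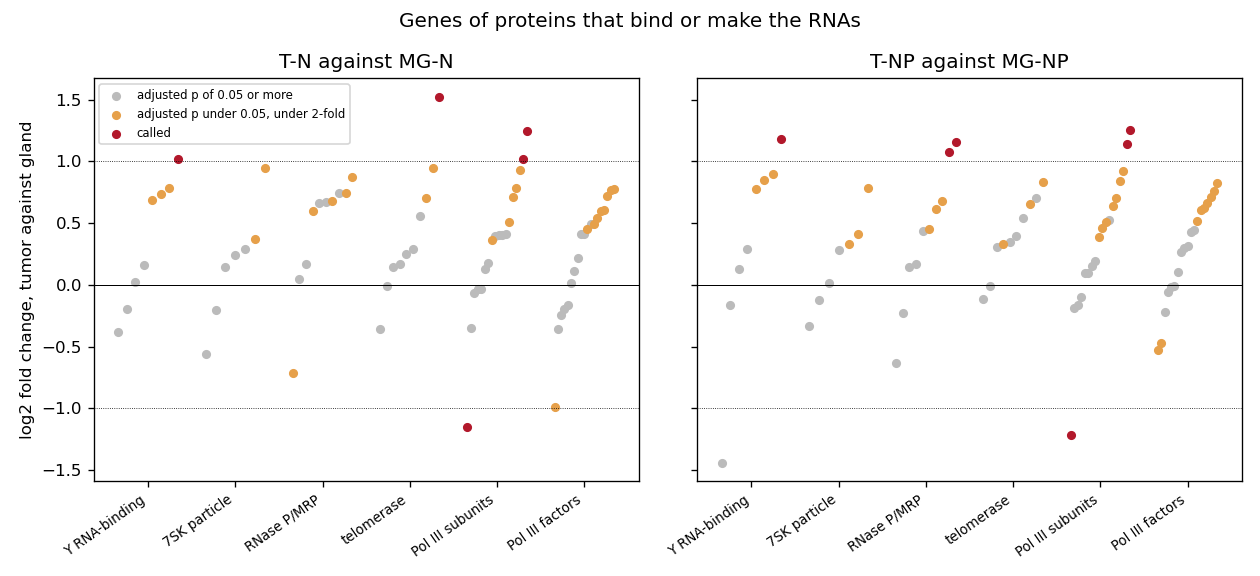
Log2 fold change, tumor against gland, of 72 genes of proteins that bind or make the RNAs, by list, with T-N against MG-N on the left and T-NP against MG-NP on the right; points are genes in order of fold change within a list, colored by test result, and dotted lines mark 2-fold. Most points lie between the dotted lines, with 5 calls in N and 6 in NP.

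Against MG-WT the same 72 genes split in both directions, with 6 called higher and 6 lower in MG-N (19.1% and 17.9% of all genes), and 5 and 6 in MG-NP (16.4% and 16.2%). Ybx1, a Y RNA-binding protein, and Pop5 led the rises in both, with 1.49 (SE 0.12, adjusted p = 3.1e-05) and 1.47 (SE 0.18, adjusted p = 2.3e-04) for MG-N, then 1.77 (SE 0.23, adjusted p = 0.0012) and 1.74 (SE 0.24, adjusted p = 0.0015) for MG-NP. The third of the largest rises was Hexim2 in MG-N, 1.46 (SE 0.28, adjusted p = 0.0027), and the polymerase subunit Polr2f in MG-NP, 1.62 (SE 0.17, adjusted p = 5.7e-04). Naf1, which assembles box H/ACA particles such as telomerase, fell by the most, -2.78 (SE 0.17, adjusted p = 9.6e-06) in MG-N and -3.10 (SE 0.18, adjusted p = 6.6e-05) in MG-NP. Nucleolin (Ncl) had -2.02 (SE 0.22, adjusted p = 1.6e-04) and -1.96 (SE 0.21, adjusted p = 5.7e-04). The third fall was Mepce in MG-N, -1.23 (SE 0.11, adjusted p = 4.3e-05), and Ptbp1 in MG-NP, -1.34 (SE 0.27, adjusted p = 0.0062). Ptbp1 missed 2-fold without MG-NP replicates 2 and 4 (-0.94). Ro60 had -0.68 (SE 0.11, adjusted p = 0.001) and -0.98 (SE 0.22, adjusted p = 0.0099), and Ssb 0.15 (SE 0.12, adjusted p = 0.31) and 0.02 (SE 0.14, adjusted p = 0.92), beside the Y RNA ratios given above. Of the Pol III genes, Polr3a had -0.07 (SE 0.10, adjusted p = 0.57) and -0.05 (SE 0.14, adjusted p = 0.77), and Bdp1 -0.32 (SE 0.09, adjusted p = 0.017) and -0.25 (SE 0.12, adjusted p = 0.12).

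Between genotypes, 0 of the 72 protein genes were called in glands, tumors or the interaction, with 2, 6 and 2 genes at an unadjusted p under 0.05. Over all genes, 1950 of 18563, 1210 of 16638 and 1536 of 19367 were at such a p, in that order. edgeR also called 0 of them. DESeq2 called Ybx3 in MG-NP against MG-N (1.71, adjusted p = 0.048), and limma called Rpp25l in T-NP against T-N only without T-N replicate 1 (1.22, adjusted p = 0.045). Maf1 had 0.43 (SE 0.12, adjusted p = 0.33) in glands and Hexim1 0.67 (SE 0.24, adjusted p = 0.67) in tumors, both without overlap between the groups, as 2.06% and 2.64% of all tested genes were higher. Both were picked from the 72 after their values were seen, so nothing is read from the lack of overlap.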

How the data were processed

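RNA-seq was done on 19 mouse mammary glands and tumors. Per the study's methods, reads were aligned to GRCm38 with TopHat2 (2.1.1) and Bowtie2. The counting tool and annotation are not given in the sources used here. The deposited values are a signal per gene made by the authors, read counts divided by DESeq2 size factors, without pooling of replicates. Dividing each library by its smallest step gave whole reads for all values (tolerance 0.05 reads).

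Genes with at least 10 normalized counts in as many samples as the smaller group were tested with limma (3.58.1, trend) on log2(normalized count + 1), using only the groups compared. Fold changes are on that scale and understate low genes. A call needed a Benjamini-Hochberg adjusted p under 0.05 over all genes tested and a 2-fold change. The labels do not say that tissues came from separate mice, so p-values measure the spread between these samples. edgeR (4.0.16) and DESeq2 (1.42.0) were run on recovered reads as alternatives. Other alternatives were pseudocounts, filters, scaling, a replicate block, a fit of all groups, T-NP replicates 1 and 2 averaged, and each sample left out. The fits were also run on simulated counts with a single dispersion for all genes. That setting does not mimic the spread of tissue content between these glands, so no error rate is taken from it.

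The members and lists were chosen with earlier results of these data known. Named were all 6 members, the other Pol III RNAs, 17 fixed protein genes, the 3 largest called rises and falls of the protein lists per comparison, and the 5 genes most correlated with each member among genes with a mean of at least 50. Polr2f (in N), Polr3k, Rpp25l, Ybx3, Rnu11, Rnu12 and Malat1 were named after their values were seen, as were Maf1 and Hexim1 between genotypes. Names, lengths, positions and sequences came from GENCODE vM21, which matched 97.97% of identifiers. Alignments used Biopython (1.88) and blastn (2.17.0). Intervals of counts cover counting error only.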

Additional observations from a re-analysis of the deposited data

Results flagged for a closer look

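Terc had 322 normalized counts in T-N replicate 1, against 599.9 in the nearest and 634 in the highest of the other T-N tumors. The gap took 0.890 of the group's range, above Dixon's 95% critical value of 0.829 for 4 samples. It was the only one of 24 checks (6 RNAs in 4 groups) to pass, and chance passes about 1 in 20. The T-N minus MG-N difference of Terc was 3.46, and 3.09 to 3.95 with single libraries of either group left out.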

How the results depend on the processing

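Without the 2-fold threshold, 40 of the 72 protein genes were called in MG-N and 32 in MG-NP against MG-WT. In T-N against MG-N 31 were called, and in T-NP against MG-NP 34. Over all genes the counts were 11241 of 19017, 8853 of 19065, 9200 of 17950 and 9929 of 17880, in that order. DESeq2 called 1 in MG-NP against MG-N. Without MG-NP replicates 2 and 4, chosen after seeing the data, 7 were called in MG-NP against MG-WT. With each sample left out in turn, calls ranged from 11 to 13 in MG-N and 10 to 16 in MG-NP against MG-WT, 3 (without T-N replicate 2) to 7 in T-N against MG-N, 5 to 7 in T-NP against MG-NP and 0 to 1 in T-NP against T-N. The medians of the 6 RNAs kept their sign under every alternative run. The cause of these changes was not tested.

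Some small values turned sign. Terc in MG-N against MG-WT was 0.15 with edgeR and 0.15 with DESeq2, and the Rny1 interaction was 0.0039 with TMM scaling and 0.088 with T-NP replicates averaged. Without MG-NP replicates 2 and 4, Pop1 (-0.14) and Tert (-0.018) turned in T-NP against MG-NP, Rny1 (-0.32) in MG-NP against MG-N, and Rny1 (0.45), Rmrp (-0.35) and Rpph1 (-0.30) in the interaction, and Terc kept its sign but moved to 1.70 in MG-NP against MG-N and -1.84 in the interaction. With single samples left out, T-N against MG-N ranged from -0.042 to 0.071 for Bdp1, -0.0027 to 0.082 for Pop1 and -0.034 to 0.12 for Ro60. T-NP against MG-NP ranged from -0.074 to 0.028 for Bdp1, -0.093 to 0.17 for Hexim1, -0.22 to 0.033 for Polr3g and -0.0052 to 0.25 for Pop1. MG-NP against MG-N ranged from -0.11 to 0.62 for Rmrp, -0.39 to 0.00088 for Rn7sk, -0.033 to 0.31 for Rny1 and -0.036 to 0.61 for Rpph1. The interaction ranged from -0.23 to 0.50 for Rmrp, -0.28 to 0.19 for Rny1 and -0.21 to 0.44 for Rpph1. Rny1 (-0.13 to 0.33) and Terc (-0.37 to 0.14) turned in T-NP against T-N, and Terc (-0.64 to 0.22) in MG-N against MG-WT.

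Deviations of samples with the same replicate number had correlations from -0.25 to 0.33, and from -0.21 to 0.12 for tumor against gland. Such values cannot decide whether 2 samples share a mouse. The main fits did not pair samples. With the replicate block, 12, 11, 5 and 6 protein genes were called in the 4 comparisons above, in that order, and 0 between genotypes. None of the 6 RNAs was called between genotypes under any alternative run, while counts over all genes there moved with single libraries (values beside those comparisons). Y RNAs had 3 and 11 reads in MG-WT, which limits the precision of their ratios. Over the alternatives, the log2 difference of Rny3 from MG-WT ran from 10.84 to 14.38 in MG-N and 10.49 to 14.05 in MG-NP. For Rny1 it ran from 9.58 to 11.54 in MG-N and 9.72 to 11.77 in MG-NP.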
